A study of Mus musculus with 16 samples.

Results

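The sites described here are stretches of open chromatin in T helper 2 (Th2) cells that carried no called island of acetylated histone H3 lysine 27 (H3K27ac). DNase islands of all 8 DNase-seq libraries were merged where they overlapped or touched, which gave 47976 open regions. Of these, 23458 (48.9%) had an island in all 4 wild-type (WT) DNase libraries, and 1897 of those overlapped no island of any of the 8 H3K27ac libraries. These 1897 sites are 8.09% of the regions open in all 4 WT libraries and 3.95% of all merged regions. The sites were chosen by their islands in the WT DNase lists and their lack of islands in the H3K27ac lists, so neither is a finding here. Positions are on the mouse build mm9.

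CD4 T cells came from C57BL/6 mice with floxed Bcl11b alleles and a Cre recombinase, CreERT2, that 4-hydroxytamoxifen (4-OHT) switches on. Early WT cells had 4 days of Th2 culture without 4-OHT, and early knockout (KO) cells the same 4 days with it. Late WT and late KO cells had 4 days of Th2 culture without 4-OHT, rested for 1 day with IL-2, and then went through a second Th2 culture of 4 days, in which only the KO cells received 4-OHT. All groups, WT included, carried the floxed alleles and CreERT2, and no WT cells received 4-OHT, so deletion and exposure to 4-OHT cannot be told apart. The labels call the isolated cells naive but also give a sort for high CD44, a marker of activated T cells. Each of the 4 groups had 2 libraries per assay, 16 in all. Nothing in the labels says that replicates came from separate animals or cultures, so the spread between them may be technical. Deletion of Bcl11b and the identity of the cells were not checked, since the lists hold positions and scores, not gene levels.

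DNase I cuts DNA where nucleosomes have been displaced, so its islands mark promoters, enhancers, insulators and other bound elements. H3K27ac is laid down by the acetyltransferases p300 and CBP next to active promoters and enhancers. Open sites that lack it are known to include insulators bound by CTCF, enhancers that are primed but not active, and silencers. In T cells, GATA3 defines the Th2 fate, and Bcl11b is a zinc finger factor of the T lineage that binds many open sites. Which factors bind the sites below was not measured, and no genome sequence of the build was at hand, so neither motifs nor genes are given.

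The 8 DNase lists held 17397 to 39736 islands over 25.9 to 66.8 Mb, and the 8 H3K27ac lists 26548 to 32112 islands over 100.9 to 111.7 Mb. The shortest DNase lists were those of late KO replicates 1 and 2, with 18812 and 17397 islands. The read depth behind a list is unknown, so an absent island shows only that the list does not hold it. A site without H3K27ac therefore had no call in 8 lists, which is not the same as no acetylation.

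Most regions open in all 4 WT libraries had H3K27ac islands in all 8 libraries. H3K27ac islands of all 8 libraries overlapped 17780 of them (75.8%), which are called acetylated sites below, and islands of 1 to 7 libraries overlapped 3781. Just outside the rule lay 428 regions with an island in 1 H3K27ac library. In 133 of these it was late WT replicate 2, in 130 early KO replicate 1, and in 7 late WT replicate 1. Their median width was 1600 bp and their median WT score percentile 39.9. Just inside the rule were 16 sites with an H3K27ac island within 200 bp, at a median width of 1700 bp and a median percentile of 32.7. On the DNase side, 2067 regions without H3K27ac had islands in 3 of the 4 WT libraries, and 1743 of these were missing from late WT replicate 1. Without that library the rule gives 3650 sites.

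The sites without H3K27ac were narrow and stood low in the DNase lists. After merging they spanned a median of 1600 bp (quartiles 1200 and 2000 bp, range 200 to 14200 bp), against 2800 bp (quartiles 2000 and 3800 bp) for acetylated sites. Single islands in them had a median width of 600 bp in early WT replicate 1, 800 bp in early WT replicate 2, 800 bp in late WT replicate 1 and 600 bp in late WT replicate 2. In acetylated sites the same lists gave 1400, 2000, 1600 and 1600 bp. Over all 8 libraries the median island width was 675 ± 104 bp in sites without H3K27ac and 1475 ± 260 bp in acetylated sites (SD, n = 8 libraries). It was smaller in 8 of 8 libraries, with a mean difference of -800 ± 214 bp (exact two-sided sign-flip permutation p = 0.0078, the smallest that 8 libraries allow). The libraries share the same regions, and 4 of them, those of WT, were used by the rule. This test therefore speaks only for repeatability across libraries. A wide region has more room to overlap an H3K27ac island, so part of the difference comes with the rule. When only the middle of a region had to be free of H3K27ac, the difference was -725 bp.

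The island score, which the caller adds up over the windows of an island, was ranked within each list as a percentile. Islands in sites without H3K27ac stood at median percentiles of 40.1 and 44.4 in early WT replicates 1 and 2, and at 22.9 and 40.3 in late WT replicates 1 and 2. In the KO lists that still held them they stood at 27.4 and 40.04 in early KO and at 23.0 and 22.4 in late KO. Islands in acetylated sites lay between 57.1 and 74.7 in all 8 libraries. The difference averaged -33.6 ± 3.2 percentile points (SD, n = 8) and had the same direction in 8 of 8 libraries (exact two-sided sign-flip permutation p = 0.0078). As for width, the libraries share the same regions, so the test speaks only for repeatability across libraries. The rule used 4 of these lists, those of WT. The score adds up over an island, so the part of the width difference that comes with the rule enters here too. With lists kept to equal length the score difference was -19.1 points. Averaged over the 4 WT lists, 383 sites without H3K27ac (20.2%) ranked above the 50th percentile and 23 (1.21%) above the 75th. The highest stood at 89.2. Among acetylated sites 79.9% ranked above the 50th percentile and 44.6% above the 75th.

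**Figure D1:**
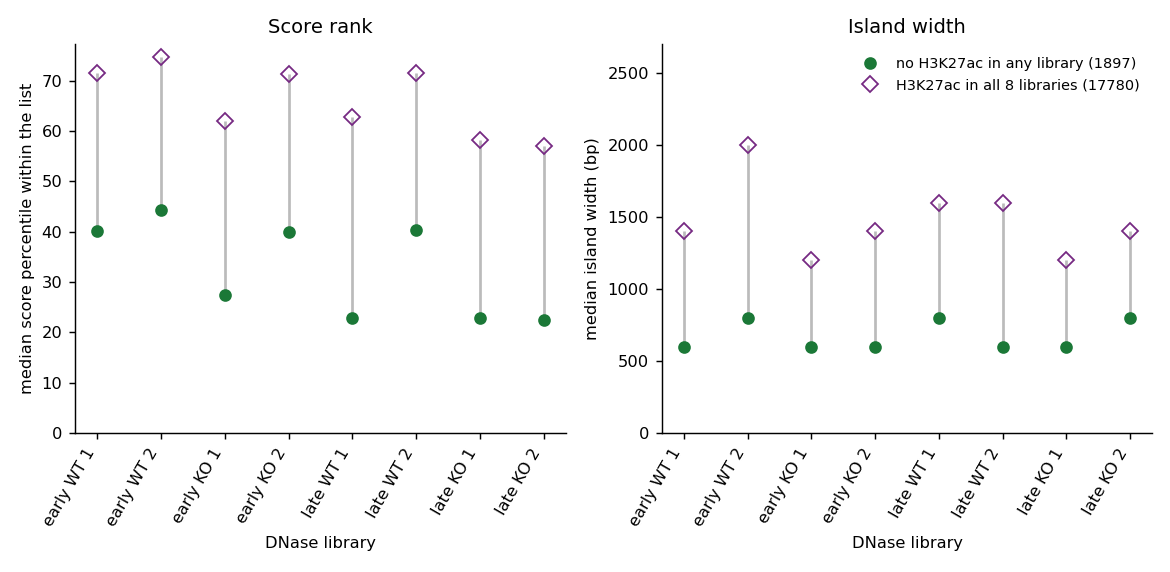
Median score percentile (left) and median island width in bp (right) of DNase islands in each of the 8 libraries. Filled circles are sites without H3K27ac in any library and open diamonds sites with H3K27ac in all 8, and the circles lie below the diamonds in every library in both panels.

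A few of the sites ranked high in all 4 WT lists. The first, on chromosome 1 at 24619401 to 24620200, was covered over its 800 bp in all 8 DNase lists, at percentiles between 81.9 and 99.3. Its nearest H3K27ac island lay 64 kb away. On chromosome 14 at 34257001 to 34258600, islands covered 600 and 1600 bp in early WT, 800 and 600 bp in early KO, 1000 and 800 bp in late WT, and 0 and 600 bp in late KO (replicates 1 and 2 of each). This site was missing from 1 late KO list only, and an H3K27ac island lay 0.8 kb away. The third, on chromosome 8 at 126957001 to 126960000, had 2000 and 2000 bp in early WT, 2400 and 800 bp in early KO, 600 and 1200 bp in late WT, and 2000 and 1200 bp in late KO. Here the genotypes overlapped at both stages. The next in rank lay on chromosome 18 at 68348601 to 68350400 and on chromosome 10 at 80476601 to 80478600, at mean WT percentiles of 84.0 and 83.9. Repeats, copies of mitochondrial DNA in the nuclear genome and other stretches that gather misplaced reads were not screened for, and their part in any single site was not tested.

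The sites were scattered along the chromosomes. The rule left out regions that overlap an H3K27ac island, and islands of a list lay at least 600 bp apart. Counts of sites beside or between H3K27ac islands are therefore partly fixed in advance and are given as a description. The nearest H3K27ac island of any library was a median of 10600 bp away (quartiles 4000 and 27000 bp). It touched 8 sites, lay within 2 kb of 270 (14.2%) and within 10 kb of 910 (48%), and was more than 50 kb from 225 (11.9%). In single libraries the median gap ran from 14000 bp in early KO replicate 1 to 18400 bp in early WT replicate 1. Sites that lay in a valley, with H3K27ac islands of the same library within 2 kb on both sides, numbered 9 (0.474%). The nearest other site without H3K27ac was a median of 170400 bp away (quartiles 55800 and 478400 bp). The nearest other region open in all 4 WT libraries was 14800 bp away for these sites and 9600 bp for acetylated sites, both medians. Such a neighbour lay within 10 kb of 738 sites without H3K27ac (38.9%) and of 9165 acetylated sites (51.5%).

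**Figure D2:**
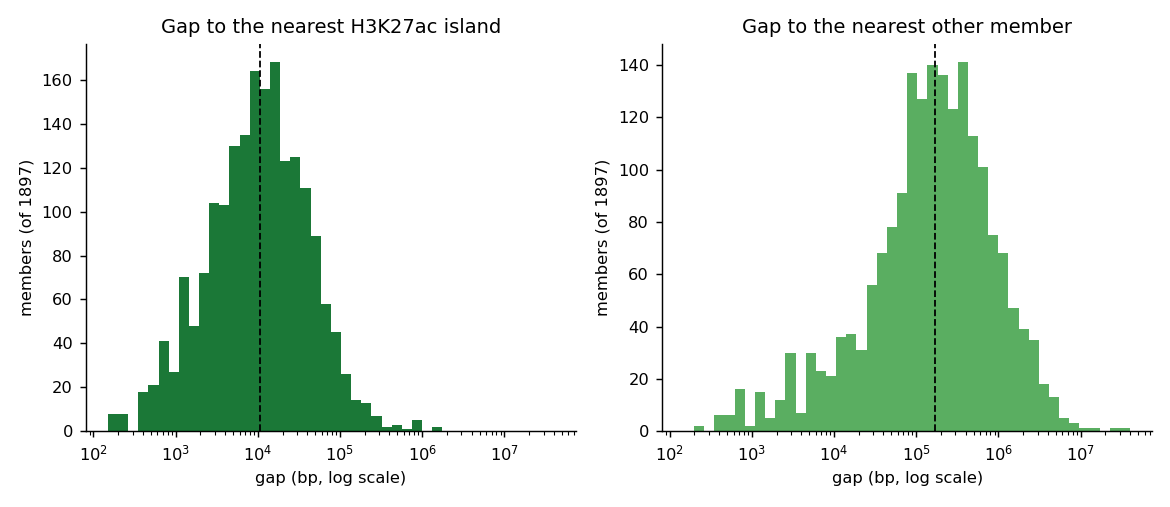
Gap in bp, on a log scale, from each of the 1897 sites to the nearest H3K27ac island of any of 8 libraries (left) and to the nearest other site without H3K27ac (right). Bars count sites and dashed lines mark the medians of 10600 and 170400 bp. The 8 touching sites are drawn in the lowest bar on the left.

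By chromosome the sites made up 5.24% (22 of 420) to 10.3% (160 of 1553) of the regions open in all 4 WT libraries. The lowest share was on chromosome X (95% Wilson interval 3.48% to 7.8%) and the highest on chromosome 1 (8.89% to 11.9%). These intervals treat sites as independent, which neighbouring sites are not.

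A few sites lay in runs with gaps of at most 10 kb. There were 79 runs with 168 sites, and 73 of the runs were pairs. The longest held 7 sites in 33.4 kb of chromosome X, from 47943601 to 47977000, with no H3K27ac island nearer than 10.4 kb. All 7 were open in each WT list, 2 and 5 in early KO replicates 1 and 2, and 3 and 2 in late KO replicates 1 and 2. Islands covered 7800 and 11200 bp of them in early WT, 2400 and 6000 bp in early KO, 9000 and 9400 bp in late WT, and 3800 and 2400 bp in late KO. Each KO list thus covered less of the run than any WT list. The rule fixed the islands in WT, so this is a description. A run of 3 on chromosome 2 at 35945801 to 35961800 had islands in 1 and 2 of its sites in early KO and in none in late KO. On chromosome 19 the run of 3 at 4988401 to 5002400 kept 2 and 3 sites in early KO, and 1 site in each late KO list.

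The sites farthest from acetylation differed in how many KO lists held them, while the rule fixed their islands in WT. The farthest, on chromosome 14 at 84842201 to 84844400, lay 1755.6 kb from any H3K27ac island. Islands covered 1800 and 1000 bp of it in early WT, 1200 and 1800 bp in early KO, 600 and 2200 bp in late WT, and 1400 and 1200 bp in late KO, so WT and KO overlapped. The next lay on chromosome 16 at 67620201 to 67621600, 1342.4 kb away, with 1200 and 800 bp in early WT, 600 and 400 bp in early KO, 1200 and 1200 bp in late WT, and none in late KO. The other 3 lay 842.4 to 940.4 kb from H3K27ac, on chromosomes 10, 1 and 9. The site on chromosome 1 was open in all 4 KO lists and that on chromosome 10 in replicate 2 of early and late KO. The site on chromosome 9 was open in early KO replicate 2 alone among the KO lists. The widest site, on chromosome 16 at 3231601 to 3245800, went against the general pattern. It had 2200 and 7400 bp in early WT, 9400 and 10400 bp in early KO, 14000 and 10200 bp in late WT, and 14000 and 14200 bp in late KO. Its percentile was 9.0 and 34.0 in early WT but 99.8 and 99.9 in late KO, and H3K27ac was 386.8 kb away. The second widest, on chromosome 1 at 85268801 to 85279600, had 3600 and 7400 bp in early WT, 8000 and 6200 bp in early KO, 7400 and 6400 bp in late WT, and 9200 and 10800 bp in late KO.

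**Figure D3:**
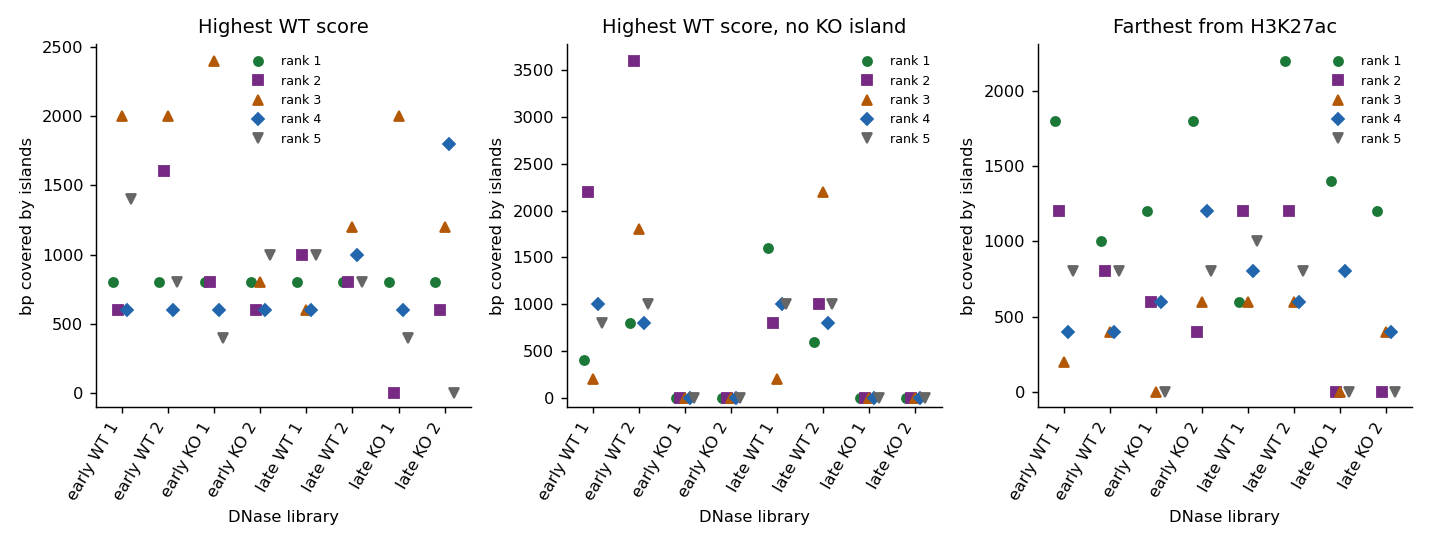
Base pairs covered by DNase islands in each library, replicates 1 and 2 of 4 groups, for 5 sites each: those with the highest mean WT score percentile (left), the highest among sites with no island in any KO list (middle), and those farthest from H3K27ac (right). Each marker is 1 site in 1 library, and the middle panel is at 0 in all 4 KO libraries by choice.

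The question the KO lists bear on is whether open sites without H3K27ac were also open in KO cells. Early KO replicate 1 held islands at 48.9% of the sites (95% Wilson interval 46.7% to 51.2%) and early KO replicate 2 at 89.2% (87.8% to 90.6%). Late KO replicates 1 and 2 held islands at 26.8% (24.8% to 28.8%) and 20.9% (19.2% to 22.8%). The intervals treat the sites of a library as independent and do not measure the spread between libraries. Both late KO lists thus held fewer of the sites than either early KO list, and the early replicates, whose lists held 24286 and 37956 islands, differed widely. Acetylated sites had islands in 87.2% and 97.9% in early KO and in 76.7% and 73.0% in late KO. The share was lower for sites without H3K27ac in 4 of 4 KO libraries, with a mean difference of -37.2 ± 19.97 percentage points (SD, n = 4). An exact two-sided sign-flip permutation test gave p = 0.13, the smallest that 4 libraries allow, so it could not pass a threshold of 0.05. The share was higher where more H3K27ac libraries had an island, though not at every step. In late KO replicate 2 the share was 20.9% at 0 H3K27ac libraries, 27.3% at 1, 39.3% at 4, 44.4% at 7 and 73.0% at 8.

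**Figure D4:**
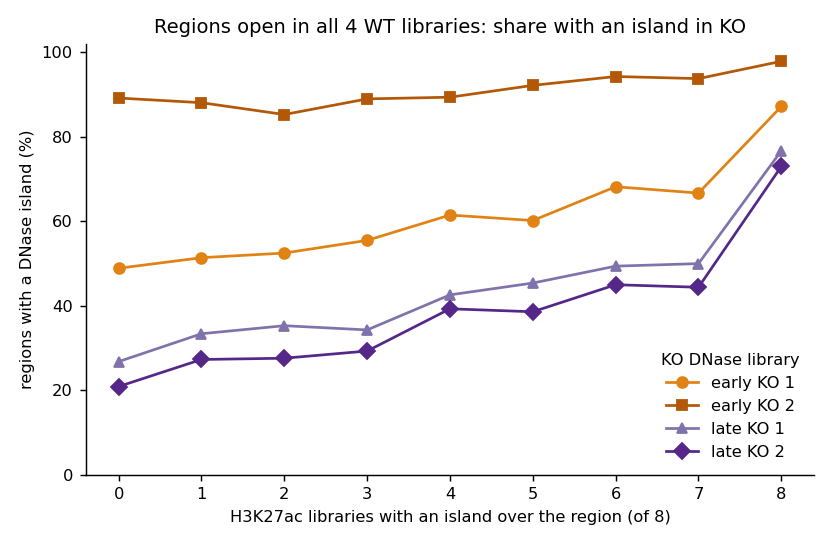
Percent of regions open in all 4 WT libraries that had a DNase island in each KO library, against the number of H3K27ac libraries (0 to 8) with an island over the region. Each line is 1 KO library. All 4 lines are higher at 8 than at 0, and the late KO lines rise from 26.8% and 20.9% to 76.7% and 73.0%.

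Site by site, 228 of the 1897 (12%) had islands in all 4 KO lists, against 55.8% of all regions open in all 4 WT libraries. In neither early KO list were 188 (9.91%, against 3.56% of all such regions), and in neither late KO list were 1266 (66.7%, against 27.5%). No KO list held 177 of the sites (9.33%, against 3.12%). Of regions with H3K27ac in 1 to 7 libraries, 27.1% were in all 4 KO lists and 8.17% in neither early KO list. Another 49.3% of them were in neither late KO list, and 7.17% were in no KO list. At 1, 2 and 3 H3K27ac libraries, 10.05%, 12.19% and 9.89% were in no KO list, so that share was not particular to the sites. The most frequent pattern at the sites was an island in early KO replicate 2 alone, at 623 (32.84%). Islands in both early and neither late KO list followed, at 452 (23.8%, against 13% of all regions open in WT and 21.1% with H3K27ac in 1 to 7 libraries). The reverse, islands in both late and neither early list, was found at 2 sites (0.105%, against 0.119% of all regions open in WT). Without early KO replicate 2, 970 sites were missing from early KO and 801 from all KO lists. Without late KO replicate 2, 380 sites were in all KO lists. With all lists kept to the length of the shortest, 277 sites met the rule. Late KO lists then held 65.7% and 66.8% of them, early KO lists 76.2% and 86.3%, and 60 of the 277 were in neither late KO list. Of the acetylated sites these lists held 90.3% to 94.7%, so the direction was the same and the mean difference was -18.4 points.

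The difference from acetylated sites was smaller when sites of like WT score were compared. Score and width go together, and the part of each in the difference was not tested. Among sites without H3K27ac, those kept in all 4 KO lists had a median WT percentile of 57.0, those open in both early and neither late KO list 39.5, and those in no KO list 23.0. In bands of 20 points of the mean WT percentile, the share of sites with an island in late KO replicate 1 was 3.8%, 15.2%, 39.7%, 73.3% and 88.9% from the lowest band to the highest. Acetylated sites of the same bands had 10.1%, 24.6%, 50.4%, 86.9% and 99.6%. The highest band held 9 sites without H3K27ac. With acetylated sites weighted to the bands of the sites without H3K27ac, the difference was -5.8 and 0.29 percentage points in early KO replicates 1 and 2, and -9.8 and -9.9 points in late KO replicates 1 and 2. Its mean was -6.3 ± 4.8 points (SD, n = 4, exact two-sided sign-flip permutation p = 0.25). Bands of score and merged width together, chosen after seeing the data, gave -3.1 ± 4.1 points (SD, n = 4, exact permutation p = 0.375), with -6.3 and -6.1 points in the late KO libraries.

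**Figure D5:**
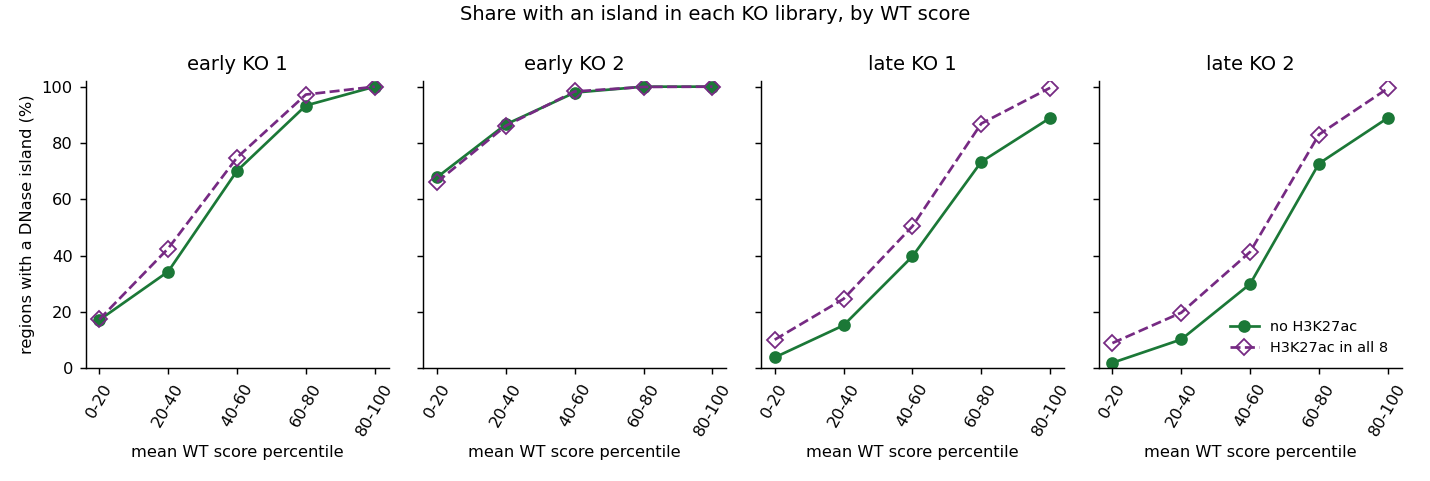
Percent of sites with a DNase island in each KO library (1 panel each), in 5 bands of the mean WT score percentile. Filled circles are sites without H3K27ac and open diamonds sites with H3K27ac in all 8 libraries. The curves nearly coincide in early KO 2, and in both late KO panels the circles lie below the diamonds in all 5 bands.

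Distance from acetylation went along with small differences in fate. Of the 270 sites within 2 kb of an H3K27ac island, 8.9% were in all 4 KO lists and 12.2% in none. Of the 225 sites more than 50 kb away, 16% were in all 4 and 5.8% in none. Their median WT percentiles were 33.5 and 38.5, so score and distance moved together, and the part of each was not tested.

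The sites missing from every KO list include some of middle rank. The highest of them, on chromosome 13 at 23783001 to 23784600, had 400 and 800 bp in early WT and 1600 and 600 bp in late WT, at percentiles from 38.7 to 68.2, 2.8 kb from H3K27ac. The next, on chromosome 8 at 87467601 to 87471400, had 2200 and 3600 bp in early WT and 800 and 1000 bp in late WT. On chromosome 11 at 49409801 to 49411000, islands covered 1000 and 800 bp at each stage in WT, and H3K27ac was 34 kb away. All 3 are listed at 0 in the 4 KO libraries by choice. Among sites in both early and neither late KO list, the highest was on chromosome 2 at 79854201 to 79855000, at a mean WT percentile of 76.2. It had 600 and 800 bp in early WT and 600 bp in each list of early KO and late WT. The second, on chromosome 10 at 110467801 to 110469200, had 800 and 800 bp in early WT, 600 and 1400 bp in early KO and 600 bp in each late WT list.

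The mirrored rule, with islands in all 4 KO lists and no H3K27ac, gave 298 regions, 2.19% of the 13618 regions open in all 4 KO libraries. The WT lists held 81.2% to 87.9% of these, 228 (76.5%) were in all 4 WT lists, and 28 (9.4%) were in none. Each rule demands islands in its own genotype, so the shares kept in the other one cannot be set against each other as gain and loss.

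Late KO was compared with early KO site by site. The rule used the KO DNase lists only to merge islands, and leaving out any 1 of them gave 1898 to 1901 sites in place of 1897. Base pairs covered by islands, as log2(bp + 200), were fitted with limma over 39472 open regions found in at least 2 libraries, and all 1897 sites were among them. In this fit, at an adjusted p under 0.05, the sites were not called more often than all regions. Coverage was lower in late KO at 98 sites (5.17%, against 5.72% of all regions) and higher at 1 (0.0527%, against 0.332%; limma, Benjamini-Hochberg adjusted p under 0.05). At an unadjusted p under 0.05 the same limma fit had 411 of the 1897 sites and 5566 of the 39472 regions lower, a larger share of the sites. With the libraries not centred, 215 sites and 3056 regions were called lower, again a larger share of the sites. In the first fit the median log2 difference was -0.82 over the sites and -0.32 over all regions. Its sign turned with 1 library: without early KO replicate 2 it was 0.10 for both, and without early KO replicate 1 it was -1.32 and -0.50. With lists of equal length 40 sites were called lower and 34 higher, of 767 tested, against 984 lower and 852 higher of all 21010 regions tested. The median over the sites was then 0.08 (0.03 over all regions). That setting tested fewer sites, so its median is not over the same sites as the first. Quantile normalization, which moved the median of all regions to 0.12, left 5 sites lower (218 of all 39472 regions), with a median of 0.00 over the sites. All 98 sites had islands in both early and neither late KO list, so no fold is given for them. On chromosome 5 at 24107201 to 24111000, islands covered 2600 and 3000 bp in early KO and 0 in late KO, with 800 to 2800 bp in the 4 WT lists (limma adjusted p = 0.0118, or 0.0626 with quantile normalization). These islands ranked low, at percentiles of 1.0 and 15.2 in early KO and a mean of 9.7 in WT. The site was not among the 767 tested with equal list lengths. On chromosome 12 at 32128201 to 32132800 they covered 2200 bp in each early KO list and 0 in late KO, with 800 to 3400 bp in WT (limma adjusted p = 0.0107). The site on chromosome 4 at 120711401 to 120714200 went from 2600 and 2200 bp to 0 (limma adjusted p = 0.0212, or 0.164 with quantile normalization). Like the site on chromosome 5, it was not tested with equal list lengths. Leaving out early KO replicates 1 and 2 in turn ended the call (adjusted p = 0.064 and 0.0666), as did leaving out late KO replicates 1 and 2 (adjusted p = 0.0591 and 0.0759). The 1 site called higher, on chromosome 2 at 151935801 to 151938200, went from 400 and 600 bp in early KO to 2200 bp in each late KO list, with 400 to 800 bp in WT. Its log2 difference was 1.97 ± 0.38 (SE, limma adjusted p = 0.0317). The call was lost in 10 of 14 other settings, without early WT, early KO or late KO replicate 1 or 2 among them, with adjusted p up to 0.17.

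KO was also set against WT in the same fit, as a description, since the rule required the WT islands. In early cells 30 sites (1.58%, against 4.21% of all regions) were called lower and 0 higher (1.55% of all regions), with 14 higher at an unadjusted p under 0.05. In late cells 105 sites (5.54%, against 5.08%) were called lower and 1 higher (0.598% of all regions). These calls depended on the scaling and the libraries. With equal list lengths 43 sites were lower and 22 higher in early cells, and 34 lower and 22 higher in late cells, of 767 tested. Of all 21010 regions tested in that setting, 714 were lower and 868 higher in early cells, and 796 lower and 899 higher in late cells. With quantile normalization limma called 0 lower in early cells (65 at an unadjusted p under 0.05) and 2 in late cells, and 0 higher in both (56 and 60). Of all 39472 regions it called 0 lower and 6 higher in early cells, and 193 lower and 99 higher in late cells. Without single libraries the early count ran from 0 to 68 and the late count from 0 to 410.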

How the data were processed

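The authors used CASAVA 2.18, Bowtie2, SICER 1.1 and mm9 as the build, per the submitters' processing notes. ChIP used a histone kit and an anti-H3K27ac antibody, and DNase-seq a protocol for few cells, per the labels. The deposited lists, made for each library, give position and an island score, the authors' value, used here only to rank or filter within a list. All islands began and ended on steps of 200 bp, and islands of a list lay at least 600 bp apart. Read numbers, control libraries and duplicate rates are not given in the sources used here. The gene and promoter tables at hand were of another build, and were not used.

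The sites, tests and named regions were chosen with earlier results of these data known. Named were up to 5 sites by WT score percentile (all, in no KO list, in early but not late KO), width, distance to H3K27ac and limma change, and the 3 longest runs, some only in part for brevity. Overlap means at least 1 bp. A region's percentile is that of its highest island. Per-library values were compared by exact sign-flip permutation. Covered bp were fitted with limma 3.58.1 (all 4 DNase groups, lmFit, eBayes with a trend, libraries centred on regions present in all 8). Interval steps and the fit were tested on simulated data. Of 200 among 39472 regions lowered in late KO, 0 were called at a log2 of 1 or 2 and 74 (37%) at 3. The 200 were drawn from regions with islands in all 8 libraries, unlike the sites absent from late KO. In that setting the fit missed changes of 1 or 2. It does not give the smallest change the fit finds in the data, where 1 site was called at a log2 of 1.97. Python 3.11.15, numpy 2.4.6, pandas 2.3.3, scipy 1.17.1, matplotlib 3.10.9 and R 4.3.3 were used. The closing section gives the alternatives.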

Additional observations from a re-analysis of the deposited data

Results flagged for a closer look

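The difference between KO and WT in covered bp was not the same at the 2 stages, by the interaction term of the limma fit, at 32 sites, where the change in KO was more negative at the late stage (1.69%, against 2.79% of all 39472 regions tested), and at 0 sites in the other direction (3.24% of all regions, 12 sites at an unadjusted p under 0.05). No other result of the sites was singled out this way, since groups of 2 libraries are too small for a search for outlying samples. The term uses the 4 WT lists in which the rule required an island at every site, so the count is a description. With equal list lengths 33 sites were called lower and 43 higher, of 767 tested, against 834 lower and 911 higher of all 21010 regions tested. Each of the 8 limma fits without 1 library called 0 lower, with 158 to 514 at an unadjusted p under 0.05.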

How the results depend on the processing

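Sites numbered 6192 with the upper 50% of each H3K27ac list, 159 with the upper 50% of each DNase list and 277 with equal list lengths. In that order, 479, 8 and 26 were in neither early KO list, 3353, 112 and 60 in neither late KO list, 433, 8 and 13 in no KO list, and 1419, 22 and 126 in all 4. With H3K27ac over at least 50% of a region, 365 sites were in all 4. Joining islands within 1 kb, testing the middle of a region and asking for no H3K27ac within 2 kb kept these counts within 1.5 times. Leaving out each library in turn gave 1898 to 3650 sites, 188 to 970 in neither early KO list, 1267 to 2898 in neither late KO list, 177 to 801 in no KO list and 228 to 380 in all. The highest values came without late WT replicate 1 (sites, neither late list), early KO replicate 2 (neither early list, no KO list) and late KO replicate 2 (all KO lists). Differences from acetylated sites kept their direction in each of these settings, from -46.7 to -32.3 points for KO shares, -829 to -743 bp for width and -37.6 to -33.2 points for percentile without single libraries.

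Sites called lower in late than early KO numbered 44 with a replicate block, 26 with a pseudocount of 500 bp, 215 with no centring (median of all regions -0.50), 5 with quantile normalization, 40 with equal list lengths, and 23 to 164 without single libraries. For the interaction these settings gave 0, 0, 93, 0, 33 and 0 sites lower, with 43 higher at equal list lengths, and no filter on regions also gave 0. At an unadjusted p under 0.05 the limma fit with a replicate block had 230 sites lower. Over all 39472 regions, those lower in late than early KO numbered 1257 with a replicate block and 909 with a pseudocount of 500 bp. No centring gave 3056 and quantile normalization 218, and equal list lengths 984 of 21010. For the interaction these settings gave 0, 0, 2092, 0 and 834 regions lower. Replicate numbers did not pair the libraries by the labels, and same-numbered libraries deviated together little (correlations of -0.005 to 0.089 across regions). Unknown depth limits all counts of absent islands.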
